A study of Mus musculus with 28 samples.

Results

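The 34 genes described here belong to the NF-kB pathway or are known targets of it. They comprise 5 NF-kB subunits, 6 genes of the IkB family, 5 kinases, 7 TRAF and cIAP adaptors, 4 negative regulators, 3 TNF family ligands and 4 survival and other target genes. They were chosen by symbol, and a gene was kept when it reached 1 CPM (a read count scaled to the size of its library) in 3 or more libraries. All 34 passed, out of 23382 listed symbols, of which 11312 met the same criterion. Il4i1, which encodes a secreted amino acid oxidase, reached 1 CPM in 5 libraries, and the other 33 genes did so in all 28.

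The 28 libraries are RNA-seq of mouse germinal center B cells, the proliferating, antibody-mutating B cells of an immune response. They compare alleles of Tbl1xr1, which encodes a subunit of the SMRT/NCOR corepressor complex that the repressor BCL6 works through. Every mouse, controls included, was labelled as carrying Cg1Cre(+/-), a Cre recombinase active in antigen-activated B cells. Without further alleles there were Tbl1xr1(D370Y/WT), heterozygous and called D370Y (n = 5), with its Tbl1xr1(WT/WT) control, called WT (n = 3). On the ImuBCL6 allele, in which an immunoglobulin heavy-chain promoter drives Bcl6, there were Tbl1xr1(D370Y/WT), called ImuBcl6 D370Y (n = 5), and Tbl1xr1(WT/WT), called ImuBcl6 (n = 5). Tbl1xr1(KO/KO), called KO (n = 5), had a Tbl1xr1(WT/WT) control of its own, called Cre control (n = 5). The labels give no age and do not tie libraries to animals, so p-values reflect only how these samples vary, and part of that may be technical.

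NF-kB dimers are held in the cytoplasm by classical IkB proteins such as that of Nfkbia. In the canonical branch, signals from the B cell receptor, CD40 or Toll-like receptors activate the IKK kinases Chuk and Ikbkb, the inhibitor is degraded and dimers of Rela, Rel and Nfkb1 enter the nucleus. In the alternative branch, receptors such as the BAFF receptor release the kinase Map3k14 from TRAF and cIAP control, and Nfkb2 is processed to act with Relb. Many inhibitors of the pathway are its own targets, and in germinal centers the pathway is known for its activity in light zone cells that receive T cell help.

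NF-kB dimers bind kappa B sites, and the promoters of members named in the results are shown for the letters of such sites. RefSeq promoters (assembly GRCm38.p6, from 250 bases before to 50 bases after each annotated start) were matched for 30 of the 34 genes. The letters GGG, any 3 bases and TTCC, searched on both strands, occurred in promoters of 14 of the 30 genes (46.7%), against 6.31% of all 27025 genes with a promoter. The kappa B decamer consensus, which overlaps that motif, occurred in 13 of 30 (43.3%) against 5.14% of all genes. TTCCTNGAA, a site bound by BCL6, occurred in 2 of 30 (6.67%), Nfkbid and Tnip1, against 1.86%. The members were chosen as NF-kB pathway genes and known targets, so the kappa B shares describe that choice and are not a test. The promoters of the 4 members that passed a test between Tbl1xr1 alleles follow, 5′ to 3′ on the gene's strand, with the first motif or its reverse complement in capitals. They are Traf5 (chr1:192092550-192092849, minus strand), Birc3 (chr9:7873121-7873420, minus strand), Tnfaip3 (chr10:19015361-19015660, minus strand) and Tnf (chr17:35201958-35202257, minus strand). The Tnfaip3 window is that of one of its annotated starts. The Tnf and Birc3 windows hold no match. GGGTGATTCC in Traf5 and GGAACTGCCC in Tnfaip3 match only the first motif, and GGAAATCCCC in Tnfaip3 also matches the decamer consensus. The Tnfaip3 window further holds GGGACACCCC, left in lower case, which matches only the decamer consensus.
Traf5: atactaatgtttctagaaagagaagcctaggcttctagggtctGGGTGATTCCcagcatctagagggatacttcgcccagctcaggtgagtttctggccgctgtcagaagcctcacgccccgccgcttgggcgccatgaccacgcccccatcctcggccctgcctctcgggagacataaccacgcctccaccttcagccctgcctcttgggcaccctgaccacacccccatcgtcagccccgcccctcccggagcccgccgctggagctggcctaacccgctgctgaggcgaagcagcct
Birc3: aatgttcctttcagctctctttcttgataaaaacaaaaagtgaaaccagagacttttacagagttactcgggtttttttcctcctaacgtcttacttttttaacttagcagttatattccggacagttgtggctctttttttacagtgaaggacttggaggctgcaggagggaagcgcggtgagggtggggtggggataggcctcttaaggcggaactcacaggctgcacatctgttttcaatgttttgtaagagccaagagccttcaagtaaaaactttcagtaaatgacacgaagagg
Tnfaip3: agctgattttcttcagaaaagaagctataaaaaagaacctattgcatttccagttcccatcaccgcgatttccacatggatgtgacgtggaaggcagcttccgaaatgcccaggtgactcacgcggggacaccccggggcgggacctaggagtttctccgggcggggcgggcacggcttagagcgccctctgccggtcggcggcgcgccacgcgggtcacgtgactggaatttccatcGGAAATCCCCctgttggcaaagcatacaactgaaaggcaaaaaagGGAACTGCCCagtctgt
Tnf: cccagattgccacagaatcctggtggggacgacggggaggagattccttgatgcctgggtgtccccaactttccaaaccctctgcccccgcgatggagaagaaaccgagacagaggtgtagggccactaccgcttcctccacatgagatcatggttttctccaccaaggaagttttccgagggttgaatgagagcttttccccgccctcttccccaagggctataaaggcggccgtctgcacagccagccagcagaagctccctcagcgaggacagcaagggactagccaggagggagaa
The matches of 6 other members described below are given with 5 bases on each side, on the strand that reads GGG to TTCC, with the motif in capitals, to show the letters that the motif leaves free in genes of different roles. They were picked from 14 members with a match, and the motif itself fixes the other letters. Ltb, Nfkb2 and Cyld hold the same letters, GGGACTTTCC, and Rel and Traf3 share GGGGATTTCC with the Tnfaip3 window.
Rel: gggggGGGGATTTCCcgctg
Traf3: cccgcGGGGATTTCCagcgc
Nfkbia: gcgcgGGGAATTTCCaagcc
Ltb: gcccgGGGACTTTCCgaaca
Nfkb2: ttttcGGGACTTTCCtaagc
Cyld: ctgaaGGGACTTTCCgctcg
A match describes these letters in this window and is not a measured binding site.

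Each library had 19.0 to 37.7 M reads on listed genes, and 3 reads corresponded to 0.0640 to 0.133 CPM. Reads on listed genes made up 64.4% of the CPM denominator in KO replicate 3 and 78.7% to 84.6% in the other libraries. The libraries labelled KO had 102.0 ± 15.4 CPM of Tbl1xr1, against 86.0 ± 5.82 in Cre control (SD, n = 5 each), and the sources used here do not give the deleted part of the gene. Bcl6 was at 549.8 ± 24.5 CPM in ImuBcl6 (n = 5) and 362.6 ± 4.18 in WT (n = 3). The B cell marker Cd79a was at 654.4 CPM or more in every library. Sex-linked transcripts showed the Xist pattern in all 5 D370Y and the Y pattern in all 3 WT libraries, and the reverse in all 5 ImuBcl6 D370Y and all 5 ImuBcl6 libraries. KO had 2 libraries of the Xist and 3 of the Y pattern, and Cre control 4 and 1. Genotype and sex thus cannot be told apart in each D370Y comparison, in their difference and in ImuBcl6 against WT. The same holds for the KO effect minus the D370Y effect. An additive effect of sex, equal on both backgrounds, cancels in the mean of both D370Y effects. In that mean 3 of 5 sex-linked genes still passed the test as lower and 0 as higher (median -0.48). For these genes sex did not cancel in full.

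Levels were compared between members as CPM per kb of exonic length, averaged over 28 libraries of different protocol texts. Ltb, which encodes the membrane-bound ligand lymphotoxin beta, was the highest member at 252.3 CPM per kb, and the highest in each group. Nfkbia, the classical inhibitor, followed at 52.3, then Lta, the soluble partner of Ltb, at 37.0 and the subunit Rela at 33.7 CPM per kb. The order of these 3 changed by group: Lta was at 43.8 and Nfkbia at 43.4 in KO, and Rela at 42.6 and Lta at 40.8 in Cre control. Nfkbiz, a nuclear IkB protein that acts on a subset of targets, was next to last at 1.97, and Il4i1 was lowest at 0.169 CPM per kb. In the annotation, 83.9% of the exonic length of Il4i1 overlaps Tbc1d17 on the opposite strand, so its few reads may in part belong to that gene.

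**Figure D1:**
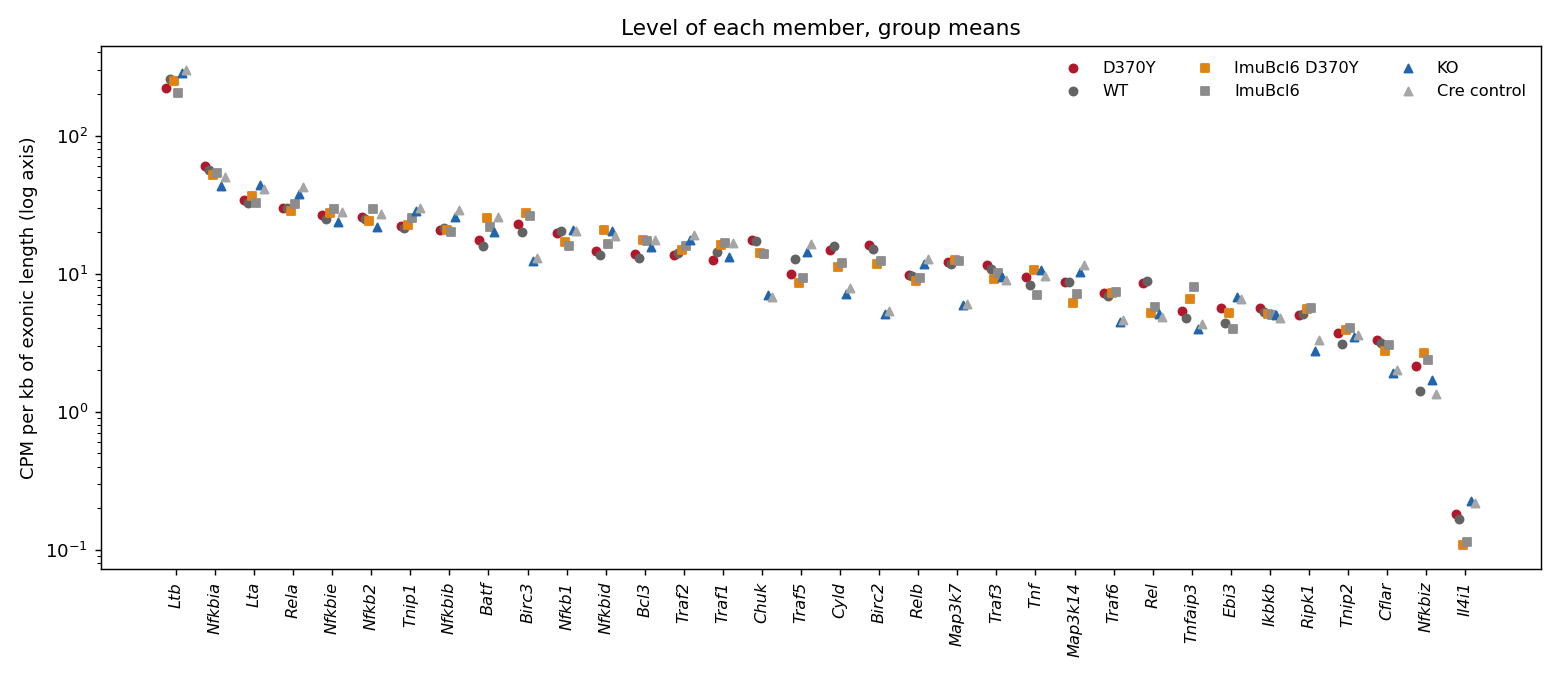
Group means of the 34 members as CPM per kb of exonic length (log axis), ordered by their mean over all libraries, with 1 symbol per genotype group. Ltb is at 204 CPM per kb or more in every group, the other members except Il4i1 lie between 1.34 and 60.3, and KO and Cre control, which have a protocol text of their own, lie apart from the other groups for genes such as Birc3, Chuk and Birc2.

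The member with the highest mean CPM over all 28 libraries in each role class is given in every library. Within single groups the first place differed, with Nfkbie above Nfkbia in 4 groups, Batf above Cflar in 3, Tnip1 above Cyld in KO and Cre control, and Birc3 above Traf1 in D370Y. Among the subunits this was Nfkb1, the precursor of a canonical subunit, with 228.6, 222.4, 238.3, 260.3 and 242.1 CPM in D370Y and 237.3, 252.6 and 249.2 in WT. Nfkb1 had 201.3, 197.8, 197.8, 219.9 and 202.6 CPM in ImuBcl6 D370Y and 190.4, 202.1, 194.9, 191.4 and 181.2 in ImuBcl6, and 261.0, 278.7, 192.0, 253.3 and 269.7 in KO and 233.7, 240.2, 255.4, 247.9 and 245.1 in Cre control. The groups overlapped in each of these pairs, and KO replicate 3 was the lowest KO library. Ikbkb, the IKK subunit that phosphorylates IkB proteins, led the kinases with 102.8, 98.5, 101.8, 123.2 and 109.5 CPM in D370Y and 104.2, 98.0 and 98.7 in WT. It had 95.1, 92.9, 103.4, 99.6 and 95.3 CPM in ImuBcl6 D370Y and 90.9, 95.5, 96.8, 97.3 and 93.6 in ImuBcl6. In KO it had 103.0, 96.3, 78.1, 101.7 and 102.2 CPM, and in Cre control 88.8, 90.4, 90.9, 87.7 and 98.2. Ikbkb lay between 78.1 and 123.2 CPM in all 28 libraries, with KO replicate 3 lowest.

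Nfkbia had the highest pooled mean of the IkB family, with 86.4, 102.5, 99.1, 97.4 and 99.9 CPM in D370Y and 86.6, 97.3 and 86.0 in WT. It had 71.7, 95.7, 82.6, 79.1 and 87.4 CPM in ImuBcl6 D370Y and 69.5, 84.7, 78.2, 98.4 and 100.9 in ImuBcl6, and 70.8, 79.6, 54.7, 75.05 and 69.5 in KO and 70.8, 80.7, 78.3, 87.8 and 86.6 in Cre control. All 3 pairs overlapped, and the spread was widest in ImuBcl6. Cflar, which encodes the caspase inhibitor c-FLIP, had that of the survival genes, with 43.6, 40.2, 37.2, 45.6 and 41.8 CPM in D370Y and 39.7, 40.4 and 38.3 in WT. It had 34.2, 33.9, 37.7, 34.1 and 35.2 CPM in ImuBcl6 D370Y and 43.5, 40.8, 41.1, 34.1 and 33.9 in ImuBcl6, and 23.0, 27.2, 26.7, 22.5 and 21.9 in KO and 21.9, 27.0, 27.0, 23.0 and 26.8 in Cre control. Cflar groups overlapped within each pair. Traf1, Cyld and Ltb had the highest pooled mean of the other classes and are given with their comparisons.

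D370Y was first compared with WT in cells without ImuBcl6. Traf5, an adaptor of CD40 and other TNF receptors (chromosome 1, 191997205 to 192092559, minus strand), was lower in D370Y, and the other 32 members tested did not pass the test. The count of 1 member of 33 (0 higher, 1 lower) stands beside 3.55% of all 10600 tested genes (2.6% higher, 0.943% lower). Traf5 had 44.1, 44.9, 43.4, 46.1 and 49.5 CPM in D370Y, against 56.5, 59.1 and 58.5 in WT. All 5 D370Y libraries lay below all 3 WT libraries. The difference was -0.34 ± 0.07 on the log2(CPM + 1) scale (SE; limma, Benjamini-Hochberg adjusted p = 0.0125). The call was lost when any 1 of the 3 WT libraries was left out, with adjusted p = 0.0587, 0.0832 and 0.0838 without WT replicate 1, 2 and 3, while the difference stayed between -0.37 and -0.32 over all 8 single omissions. Without D370Y replicate 5, 2 members were called, Ltb and Traf5.

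The next members by test statistic were also TRAF and cIAP adaptors. Traf1, an adaptor without a RING domain that is itself an NF-kB target, had 107.7, 108.4, 109.3, 109.8 and 114.7 CPM in D370Y and 124.1, 134.9 and 118.9 in WT (-0.19 ± 0.06, adjusted p = 0.122). Birc3, which encodes the ubiquitin ligase cIAP2, had 115.9, 110.7, 108.3, 117.6 and 123.2 CPM in D370Y and 104.0, 102.7 and 96.4 in WT (0.19 ± 0.07, adjusted p = 0.145). Neither pair of groups overlapped, yet neither difference passed the test over all genes. With Traf5 these made 3 members of 33 whose groups did not overlap, beside 14.8% of all tested genes. Traf2, Traf3, Traf6 and Birc2 differed by -0.05 to 0.09 on the log2 scale.

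No subunit, IkB family gene, kinase, negative regulator, ligand or survival gene passed the test in D370Y against WT. The 5 subunits differed by -0.08 to 0.05 and the 5 kinases by -0.03 to 0.09 on the log2 scale. Nfkbiz had the largest difference of any member, with 9.25, 8.18, 8.75, 16.7 and 10.8 CPM in D370Y and 9.29, 6.71 and 5.14 in WT (0.53 ± 0.21, adjusted p = 0.203). Its groups overlapped, since WT replicate 1 lay within the D370Y range, and D370Y replicate 4 was the highest library. The ligand Tnf split within the D370Y group, at 11.2, 10.2, 12.5, 21.96 and 21.6 CPM, against 14.5, 13.4 and 12.5 in WT, and Lta followed at 40.5, 36.6, 38.4, 58.7 and 62.3 CPM in D370Y and 46.9, 45.1 and 43.6 in WT. D370Y replicates 4 and 5 were the highest of all 8 libraries for both ligands, and replicates 1, 2 and 3 lay at or below the WT range. The median difference of the 33 members was 0.05, beside -0.02 for all tested genes, and 30 of 33 members had a 95% interval within 1.5-fold in either direction, the exceptions being Nfkbiz (0.07 to 0.99), Tnf (-0.38 to 0.62) and Ebi3 (-0.10 to 0.70).

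**Figure D2:**
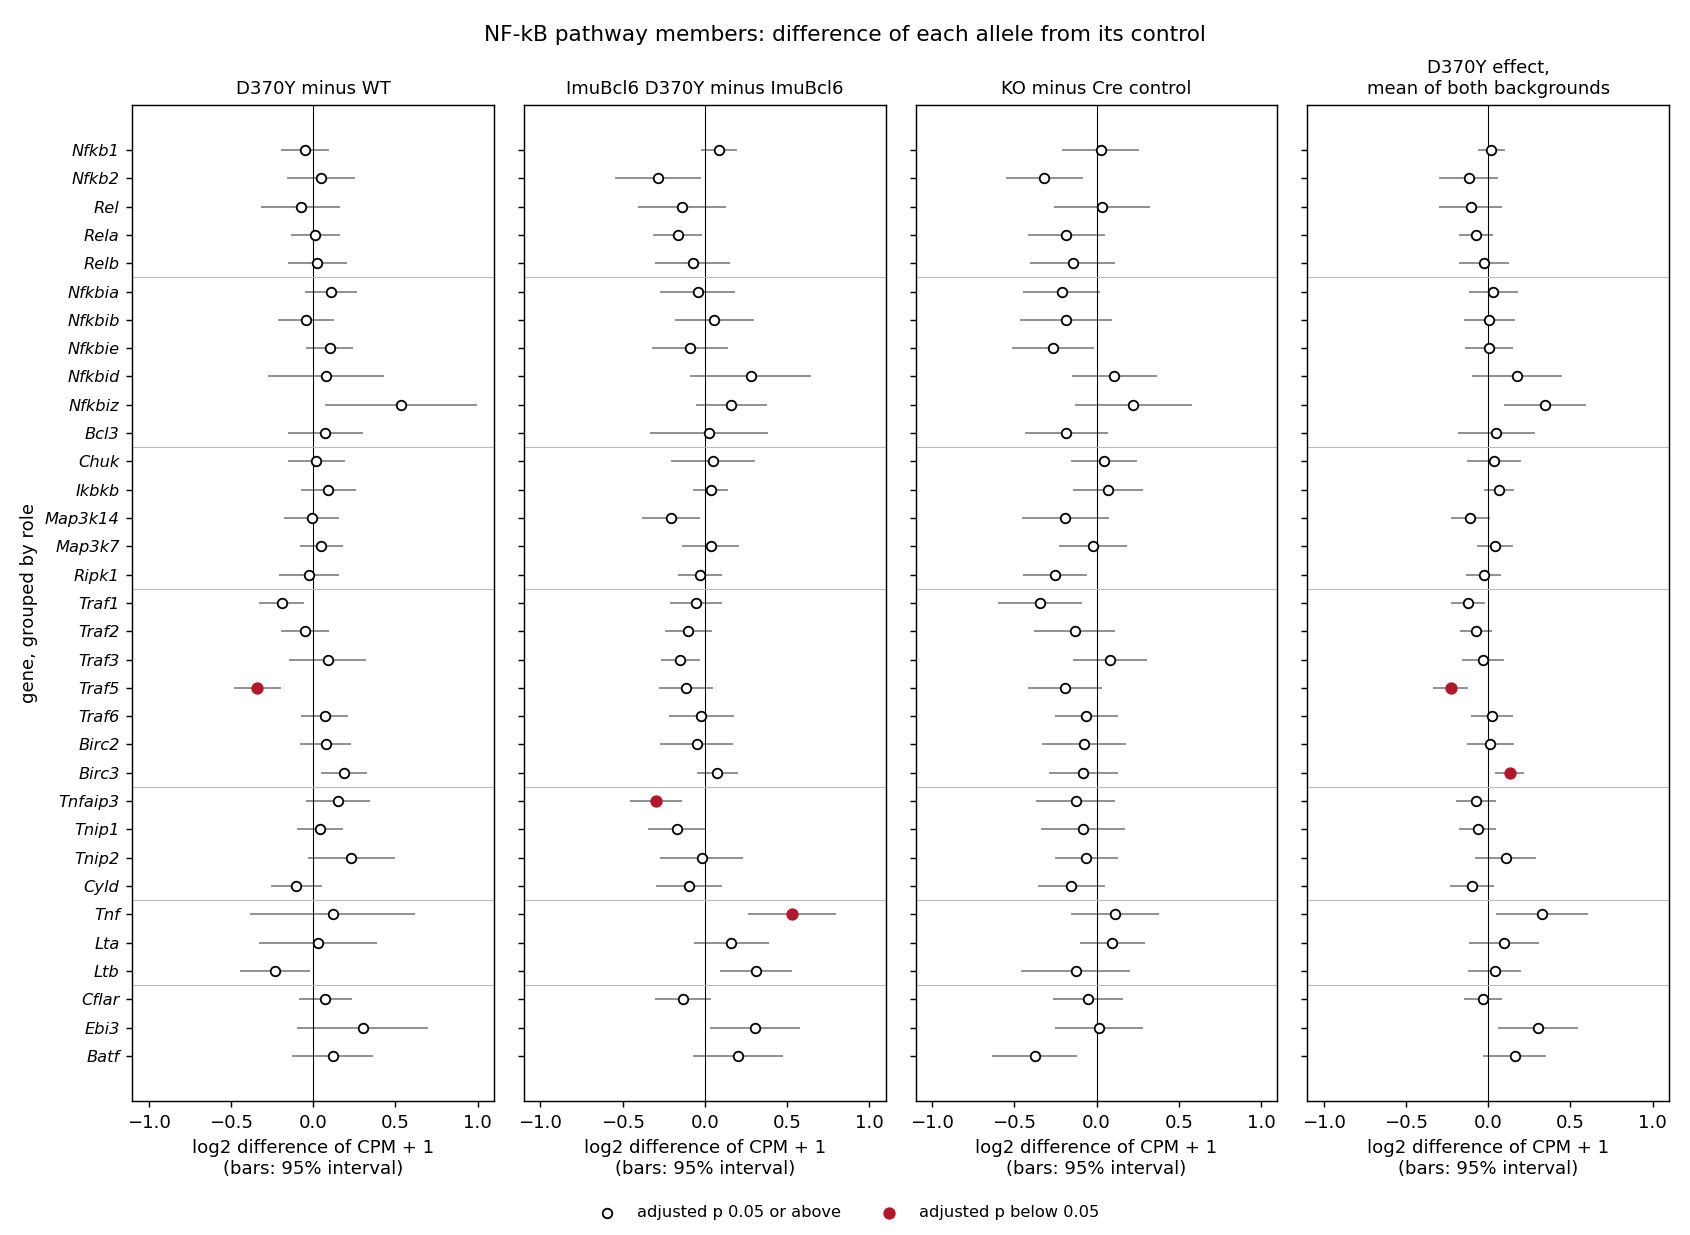
Difference of each allele from its control in log2(CPM + 1) for the 33 tested members, grouped by role, with 95% intervals as bars and filled points for members that passed the test. Traf5 is filled in D370Y minus WT, Tnfaip3 and Tnf in ImuBcl6 D370Y minus ImuBcl6, none in KO minus Cre control, and Traf5 and Birc3 in the mean of both D370Y effects.

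The same allele was then compared on the ImuBcl6 background. Tnf, the inflammatory ligand and a classical NF-kB target (chromosome 17, 35199381 to 35202007, minus strand), was higher in ImuBcl6 D370Y, and Tnfaip3, the ubiquitin-editing enzyme that ends NF-kB signalling (chromosome 10, 19000910 to 19015657, minus strand), was lower. The count of 2 members of 33 (1 higher, 1 lower) stands beside 8.18% of all 10784 tested genes (2.8% higher, 5.38% lower). Tnf had 14.3, 15.5, 24.7, 15.97 and 16.3 CPM in ImuBcl6 D370Y, against 11.4, 13.1, 11.2, 10.6 and 11.2 in ImuBcl6. Every ImuBcl6 D370Y library was above every ImuBcl6 library, and ImuBcl6 D370Y replicate 3 was far above the rest. The difference was 0.53 ± 0.12 (adjusted p = 0.0204). It was 0.40 at the lowest and 0.59 at the highest over 10 single omissions, and the call was lost in 1 of them, without ImuBcl6 replicate 3 (adjusted p = 0.0592).

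Tnfaip3 had 40.8, 46.7, 47.8, 51.5 and 48.5 CPM in ImuBcl6 D370Y, against 62.6, 51.7, 56.2, 61.1 and 58.5 in ImuBcl6. The groups did not overlap, and the highest ImuBcl6 D370Y library, replicate 4, lay just under the lowest ImuBcl6 library, replicate 2. The difference was -0.30 ± 0.07 (adjusted p = 0.0255). The omission of 1 library ended this call for ImuBcl6 D370Y replicates 1, 2 and 3 and for ImuBcl6 replicates 3 and 4, with adjusted p of 0.0509, 0.0577, 0.0526, 0.0561 and 0.0606, and in a fit of all 28 libraries (adjusted p = 0.051). The other negative regulators did not pass the test: Cyld, a deubiquitinase, had 158.7, 155.6, 128.8, 129.6 and 131.1 CPM in ImuBcl6 D370Y and 177.2, 156.0, 156.6, 132.7 and 130.9 in ImuBcl6 (-0.09 ± 0.09, adjusted p = 0.589). Tnip1 and Tnip2, which encode ubiquitin-binding partners of TNFAIP3, differed by -0.17 and -0.02.

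Tnf stands between Lta and Ltb on chromosome 17, 1157 bases from Lta and 3060 bases from Ltb. Ltb had 361.5, 394.3, 374.3, 390.9 and 373.3 CPM in ImuBcl6 D370Y, against 227.9, 306.6, 305.3, 334.5 and 370.7 in ImuBcl6. ImuBcl6 D370Y libraries were tightly grouped at the upper end, and ImuBcl6 replicate 5 overlapped them. The difference of 0.31 ± 0.10 did not pass the test (adjusted p = 0.0813). Lta had 45.5, 42.1, 65.0, 48.5 and 50.4 CPM in ImuBcl6 D370Y and 39.3, 44.2, 42.7, 45.3 and 51.4 in ImuBcl6, with overlapping groups (0.16 ± 0.11, adjusted p = 0.391). ImuBcl6 D370Y replicate 3 was the highest of its group for Lta as for Tnf.

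Of the other members on the ImuBcl6 background, none of the subunits, IkB family members, kinases, TRAF and cIAP adaptors or survival genes passed the test. Nfkb2 had 99.3, 125.1, 100.04, 111.0 and 114.2 CPM in ImuBcl6 D370Y and 97.0, 150.3, 125.7, 145.3 and 160.2 in ImuBcl6 (-0.29 ± 0.12, adjusted p = 0.168). Its groups overlapped because ImuBcl6 replicate 1 was low. Traf5 had 40.0, 34.5, 38.3, 40.1 and 40.7 CPM in ImuBcl6 D370Y and 39.5, 38.1, 49.2, 42.4 and 41.1 in ImuBcl6 (-0.11 ± 0.08, adjusted p = 0.406). Traf3, which holds back the alternative pathway, was the third member whose groups did not overlap, at 62.2 to 69.6 CPM in ImuBcl6 D370Y and 70.3 to 79.6 in ImuBcl6 (-0.15 ± 0.06, adjusted p = 0.115). Such groups were found for 3 of 33 members and for 8.96% of all tested genes. Without ImuBcl6 replicate 1, 5 members were called, Nfkb2, Map3k14 and Tnip1 beside Tnf and Tnfaip3, and without ImuBcl6 replicate 3 none was (434 genes). The median difference was -0.03 for the members and -0.01 for all tested genes, and 31 of 33 members had a 95% interval within 1.5-fold, the exceptions being Tnf and Nfkbid.

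Some markers of other cells, of germinal center cells and of the dark zone differed in these D370Y comparisons. Their part in the results was not tested. Of all tested genes 3.55% were called in D370Y against WT and 8.18% in ImuBcl6 D370Y against ImuBcl6. In bulk samples fewer cells of a type and less RNA per cell cannot be told apart. Of 13 listed myeloid markers, 7 of 11 tested were higher in D370Y against WT, and in ImuBcl6 D370Y against ImuBcl6 5 of 9 were higher and 1 lower. Their summed level was 685.7 to 738.7 CPM in D370Y and 514.8 to 586.5 in WT, and 587.7 to 696.4 in ImuBcl6 D370Y and 656.3 to 740.7 in ImuBcl6, most of it from Cybb and Mpeg1. Of the T cell list, Cd2 and Cd3g were higher in ImuBcl6 D370Y, 2 of 3 tested. The list summed to 377.7 to 461.0 CPM in ImuBcl6 D370Y and 342.9 to 450.5 in ImuBcl6. Only Cd2 and Lck of that list reached 1 CPM in all 28 libraries. Cd3g did so in 10, Cd4 in 6, Cd3d in 1, and Cd3e and Cd8a in 0, so the sum is not read as T cell content. No listed marker of either kind was at 0 in every library of a group, and Cd3e and Cd14 averaged under 0.2 CPM in both ImuBcl6 groups. The germinal center markers, Bcl6 among them, summed to 2178.4 to 2391.1 CPM in D370Y and 2534.1 to 2687.4 in WT, and to 1685.8 to 2060.6 in ImuBcl6 D370Y and 2285.6 to 2495.9 in ImuBcl6. The dark zone markers summed to 1074.1 to 1346.2 CPM in D370Y and 1391.2 to 1461.0 in WT, and to 818.2 to 1077.9 in ImuBcl6 D370Y and 1247.0 to 1378.0 in ImuBcl6. Both sums were lower without overlap in both comparisons, and 1 of 6 dark zone markers passed the test as lower in D370Y and 4 of 6 in ImuBcl6 D370Y. Of 7 germinal center markers 1 passed as lower in D370Y and 2 in ImuBcl6 D370Y. The gene Gcsam is in both lists, so these sums are not independent. Of 6 light zone markers 0 passed in either comparison. They summed to 714.2 to 880.1 CPM in D370Y and 729.0 to 768.4 in WT, and to 615.8 to 719.5 in ImuBcl6 D370Y and 567.4 to 648.4 in ImuBcl6. Of 6 plasma cell markers 2 were higher in D370Y and 1 in ImuBcl6 D370Y, and 0 were lower. Of 14 immediate early and handling genes 1 was lower in each D370Y comparison, with summed levels of 498.4 to 572.4 CPM in D370Y and 561.0 to 585.2 in WT, and 736.1 to 927.8 in ImuBcl6 D370Y and 694.0 to 945.9 in ImuBcl6.

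**Figure D3:**
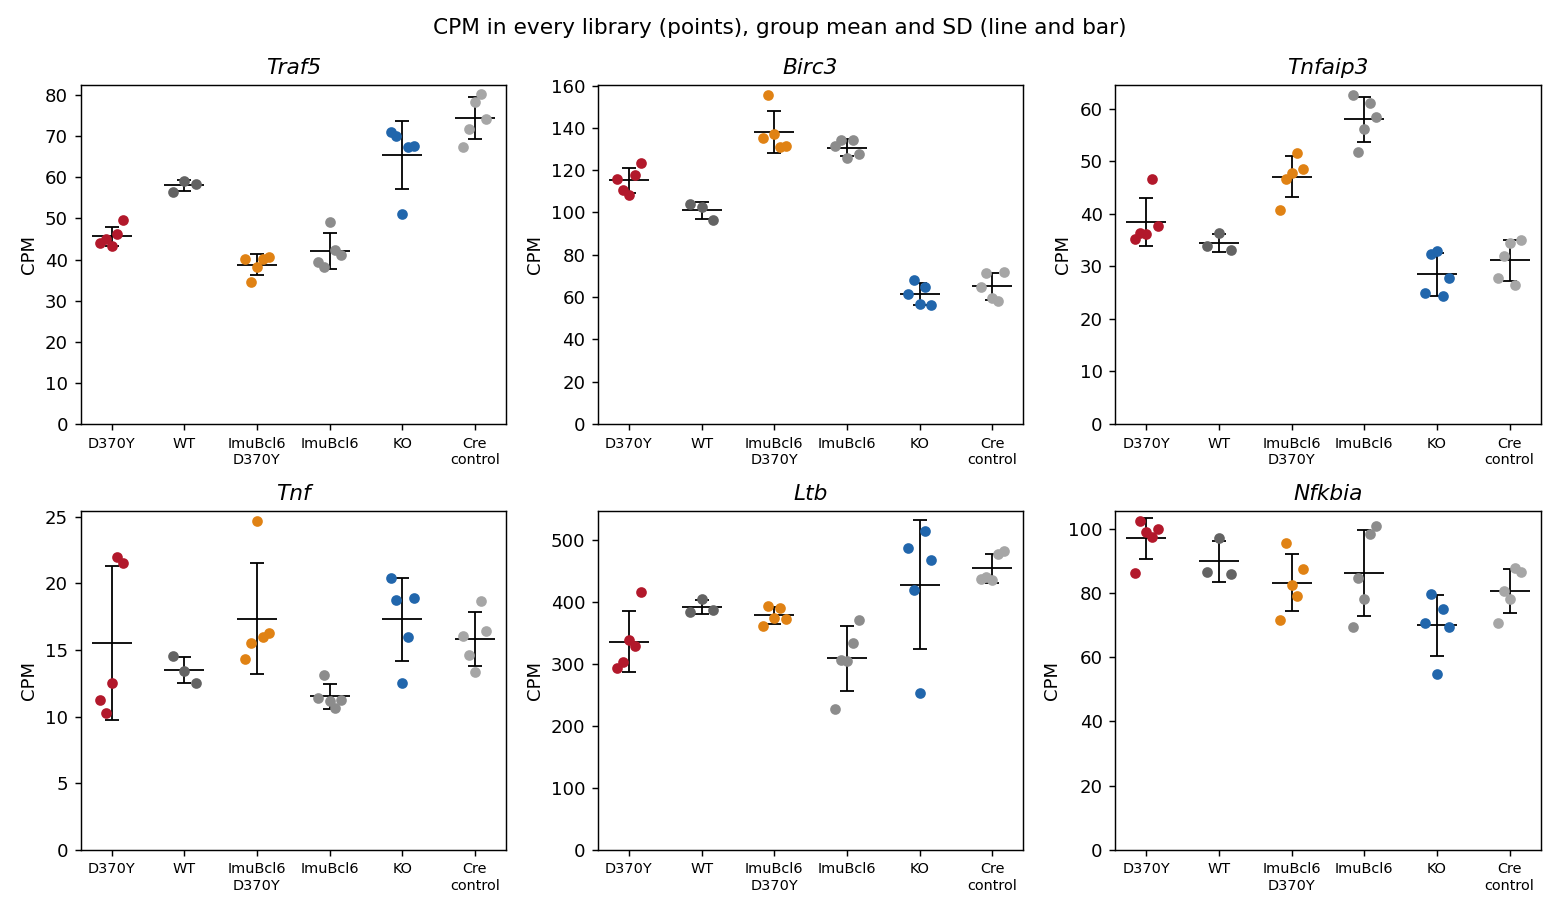
CPM of 6 members in every library (points) with the group mean and SD (line and bar), each Tbl1xr1 allele left of its control. D370Y libraries lie below WT for Traf5, ImuBcl6 D370Y libraries lie below ImuBcl6 for Tnfaip3 and above for Tnf, and KO replicate 3 is the low point for Traf5, Ltb, Tnf and Nfkbia.

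In a fit of these 4 groups together, the mean of both D370Y effects passed the test for Traf5 and Birc3. These were 2 of 33 members (1 higher, 1 lower), beside 12.5% of all 11166 tested genes (6.23% higher, 6.28% lower). Traf5 differed by -0.23 ± 0.05 (adjusted p = 0.00575) and stayed called in all 18 fits that left out a library. Its libraries were lower in D370Y than in WT and overlapped between ImuBcl6 D370Y and ImuBcl6. Birc3 (chromosome 9, 7848699 to 7873186, minus strand) differed by 0.13 ± 0.04 (adjusted p = 0.0441), with 135.3, 155.3, 137.2, 130.8 and 131.4 CPM in ImuBcl6 D370Y and 131.3, 134.2, 125.6, 134.2 and 127.7 in ImuBcl6. That pair overlapped, and the call was lost in 12 of 18 single omissions, with a difference of 0.11 to 0.14 throughout. Birc2, which encodes the related cIAP1 and lies 11634 bases from Birc3 on chromosome 9, differed by 0.01 ± 0.07 (adjusted p = 0.935). Nfkbiz, with 11.3, 14.1, 13.1, 13.6 and 14.9 CPM in ImuBcl6 D370Y and 14.1, 11.6, 10.5, 12.9 and 10.4 in ImuBcl6, had the next largest statistic (0.35 ± 0.12, adjusted p = 0.0625). It was called in 4 of 18 single omissions, those of D370Y replicate 2, WT replicate 1, ImuBcl6 D370Y replicate 1 and ImuBcl6 replicate 1. The members' median was 0.01, beside -0.01 for all tested genes.

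The effect of D370Y on the ImuBcl6 background minus its effect without ImuBcl6 passed the test for none of the 33 members, beside 0.663% of all tested genes (0.0896% higher). At an unadjusted p under 0.05 there were 3 members, edgeR called 0 and DESeq2 called 2, Ltb and Tnfaip3. The members with the largest statistics were Tnfaip3 (-0.45 ± 0.12, adjusted p = 0.0935), Ltb (0.54 ± 0.15, adjusted p = 0.127) and Traf5 (0.23 ± 0.10, adjusted p = 0.37). For Tnfaip3, D370Y had 35.3, 36.4, 36.2, 46.6 and 37.7 CPM and WT 33.9, 36.3 and 33.0, so its libraries overlapped without ImuBcl6 and not with it. Ltb had 293.4, 302.7, 339.3, 328.5 and 417.1 CPM in D370Y and 383.9, 404.4 and 387.5 in WT, where D370Y was below WT in 4 of 5 libraries. The Ltb difference was called once D370Y replicate 5 was left out (0.62, adjusted p = 0.0446). The difference for Tnf was 0.41 ± 0.27 (adjusted p = 0.559). The call of Tnfaip3 or Tnf with ImuBcl6, and of Traf5 without it, is therefore not shown to be particular to a background.

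**Figure D4:**
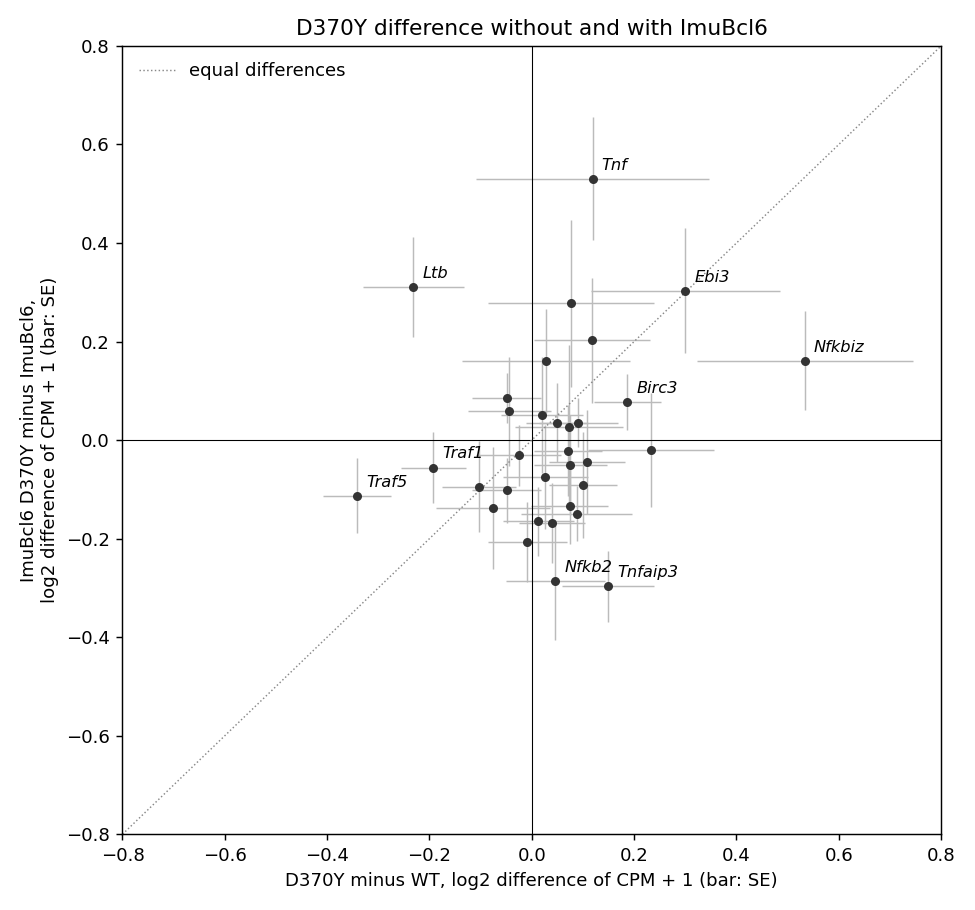
D370Y minus WT (x axis) against ImuBcl6 D370Y minus ImuBcl6 (y axis) in log2(CPM + 1), 1 point per member with SE as bars and a dotted line where both are equal. Traf5 and Traf1 are below 0 on both axes, and Ltb, Tnfaip3 and Nfkb2 differ in sign between the axes.

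KO was compared with its Cre control next. None of the 33 members tested passed the test, beside 1.39% of all 10514 tested genes (0.476% higher, 0.913% lower). At an unadjusted p under 0.05 there were 5 members, all lower in KO, edgeR called 0, and DESeq2 on the recovered reads called 3 members (Batf and Traf1 lower, Lta higher). Batf, an AP-1 factor of activated lymphocytes (chromosome 12, 85686669 to 85709087, plus strand), had 30.8, 26.4, 19.6, 29.8 and 32.9 CPM in KO and 37.7, 33.0, 33.7, 37.1 and 38.9 in Cre control. All 5 KO libraries lay below all 5 Cre control libraries, with a difference of -0.38 ± 0.12 (adjusted p = 0.203, 95% interval -0.63 to -0.12). Traf1 (chromosome 2, 34941750 to 34961772, minus strand) had 133.1, 112.5, 83.2, 122.5 and 128.2 CPM in KO and 140.0, 143.9, 144.5, 139.7 and 160.6 in Cre control, again without overlap (-0.35 ± 0.12, adjusted p = 0.262). Groups that did not overlap were found for these 2 members and for 4.23% of all tested genes. Nfkb2, the precursor of the alternative pathway, had 96.4, 114.0, 83.0, 99.6 and 104.4 CPM in KO and 104.4, 119.4, 132.7, 121.9 and 142.5 in Cre control, with overlap (-0.32 ± 0.11, adjusted p = 0.264).

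Members called in the D370Y comparisons did not pass the test in KO. Traf5 had 70.9, 70.1, 51.0, 67.5 and 67.5 CPM in KO and 67.3, 71.8, 78.3, 80.2 and 74.3 in Cre control, Tnfaip3 ranged over 24.3 to 32.9 in KO and 26.5 to 35.1 in Cre control, and Tnf had 20.4, 18.8, 12.5, 15.97 and 18.9 in KO and 16.03, 14.6, 13.3, 18.7 and 16.4 in Cre control. The differences were -0.19 ± 0.11, -0.13 ± 0.11 and 0.11 ± 0.13, and all 3 pairs of groups overlapped. Birc3 had 61.4, 67.9, 56.7, 64.9 and 56.5 CPM in KO and 64.7, 71.5, 59.8, 58.1 and 71.8 in Cre control (-0.08 ± 0.10), Ltb 487.3, 420.1, 252.9, 514.3 and 468.0 in KO and 436.8, 440.4, 435.1, 478.2 and 482.5 in Cre control (-0.13 ± 0.16). Across the 33 members 23 had a negative difference, the median was -0.08, and that of all tested genes was -0.06. The members' median was -0.03, -0.01 and -0.01 with TMM, edgeR and DESeq2, beside -0.01, 0.01 and 0.01 for all tested genes. With edgeR and with DESeq2, 18 of 33 members had a negative difference. The 95% interval lay within 1.5-fold for 31 of 33 members, the exceptions being Traf1 and Batf. None of 11 tested myeloid markers passed the test in KO, with summed levels of 256.5 to 430.8 CPM in KO and 316.2 to 378.9 in Cre control. The germinal center sum was 1516.3 to 2035.1 CPM in KO and 2036.6 to 2293.0 in Cre control, and the dark zone sum 817.5 to 1077.3 in KO and 1138.5 to 1209.9 in Cre control, both without overlap. The sum of the T cell list was 273.3 to 483.2 CPM in KO and 357.2 to 405.8 in Cre control, above the Cre control range in 4 of 5 KO libraries. Only Cd2 and Lck of that list reached 1 CPM in every library. The part of these markers in the results was not tested.

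KO replicate 3, the library with the low share of reads on listed genes, stood apart. It lay below the Cre control range for 24 of 34 members and above it for 4, with a median deviation of -0.35 from the Cre control mean, beside -0.33 over all tested genes. In it 15 members (44.1%) deviated by more than 0.5 on the log2 scale, beside 37.4% of all tested genes, and no member did so in the other 4 KO libraries. Its largest deviations were Nfkbiz, at 14.7 CPM in KO replicate 3 and 6.41 to 7.66 in the other KO libraries, and Ltb and Batf on the low side. Without this library 449 genes were called and 1 member, Traf1 (-0.23, adjusted p = 0.0463). The members' median was then -0.05, beside 0.00 for all tested genes.

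**Figure D5:**
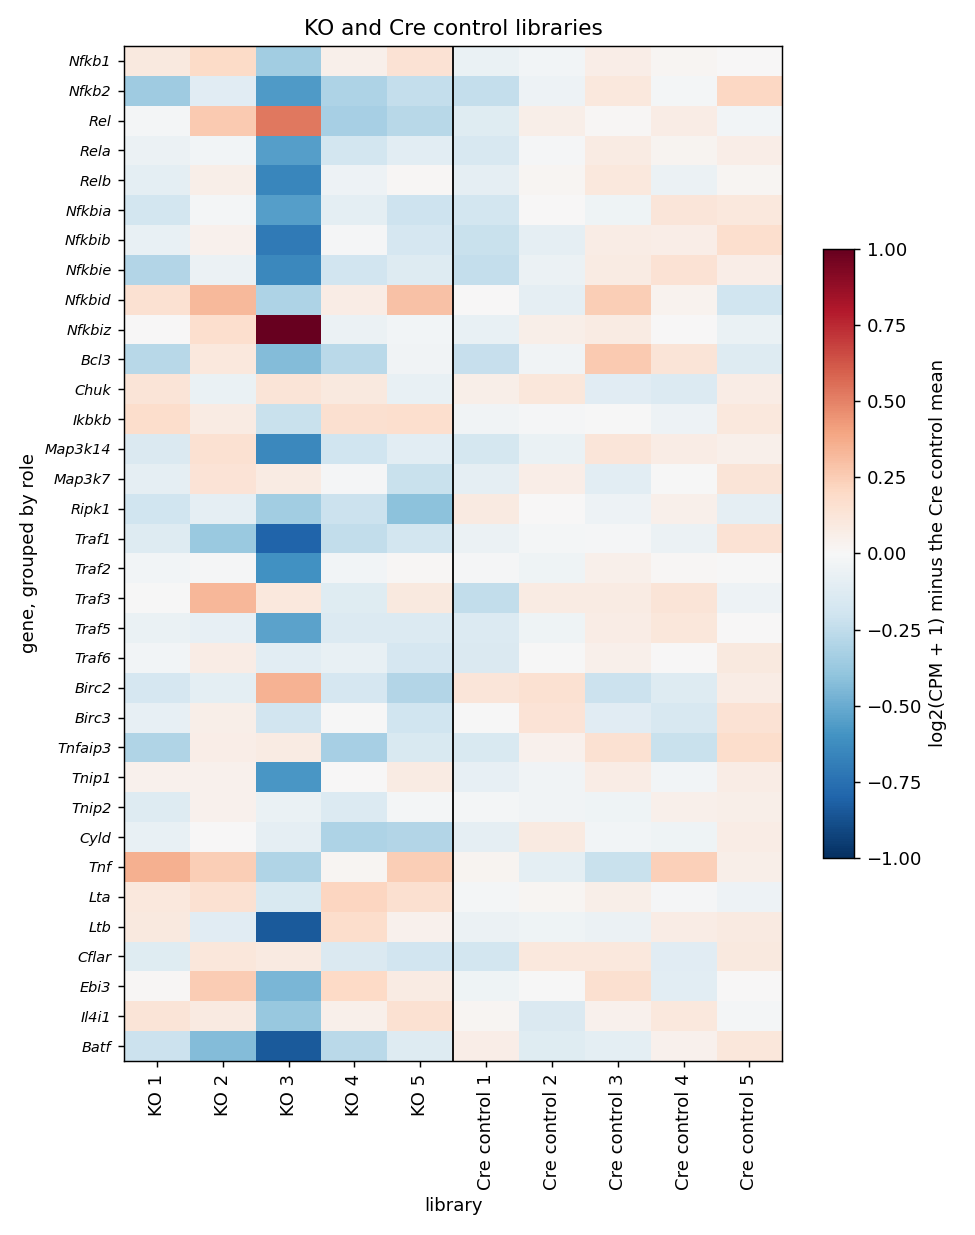
Deviation of each member in each KO library (left) and Cre control library (right) from the Cre control mean, in log2(CPM + 1), blue for lower and red for higher. KO replicate 3 is the column with the strongest colours, with Nfkbiz, Rel and Birc2 high and Traf1, Batf and Ltb low. Batf, Nfkb2, Traf1, Rela, Nfkbia, Nfkbie, Ripk1 and Traf5 are on the low side in all 5 KO libraries.

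The KO effect minus the D370Y effect passed the test for none of 34 members, Il4i1 included, beside 0.145% of all 11041 tested genes (0.0272% higher). At an unadjusted p under 0.05 there were 5 members, and edgeR and DESeq2 called 0. The members with the largest statistics were Batf (-0.50 ± 0.18, adjusted p = 0.447), Nfkbie (-0.36 ± 0.15, adjusted p = 0.58) and Nfkb2 (-0.36 ± 0.15, adjusted p = 0.633). Batf had 23.9, 28.1, 28.1, 24.3 and 18.7 CPM in D370Y and 22.5, 22.2 and 22.4 in WT. Nfkbie, which encodes an IkB protein often lost in B cell lymphoma, had 69.3, 81.9, 54.3, 74.5 and 77.8 CPM in KO and 72.3, 82.0, 90.5, 94.2 and 89.5 in Cre control, and 75.2, 84.6, 80.2, 85.5 and 78.9 in D370Y and 76.4, 77.6 and 72.1 in WT. Nfkb2 had 117.0, 105.6, 102.0, 139.8 and 123.8 CPM in D370Y and 108.1, 122.2 and 109.7 in WT. All of these pairs except Batf in KO against Cre control overlapped. The interval of the difference lay within 1.5-fold for 25 of 34 members, a bound wider than any single effect of these members, so unlike effects of KO and D370Y remain possible. The median over the members was -0.14, beside -0.05 for all tested genes. It was -0.07, beside 0.01, without KO replicate 3, and -0.04, -0.04 and -0.02 with TMM, edgeR and DESeq2.

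ImuBcl6 was compared with WT, groups that differ in the background allele. These libraries are also the controls of the D370Y comparisons above. WT had 19.0 to 19.4 M reads on listed genes and ImuBcl6 31.8 to 36.5 M. The allele thus cannot be told apart from sequencing depth, nor, as given above, from sex. Of 33 members, 12 passed the test (36.4%), beside 53.3% of all 10889 tested genes (24.7% higher, 28.6% lower). Of these, 5 were higher and 7 lower in ImuBcl6, and groups did not overlap for 13 members, beside 52.3% of all tested genes. Without ImuBcl6 replicate 1, 20 members and 6417 genes were called. Of 14 immediate early and handling genes 8 were higher and 1 lower in ImuBcl6, with summed levels of 694.0 to 945.9 CPM in ImuBcl6 and 561.0 to 585.2 in WT. Other marker sums did not overlap either. B cell markers summed to 4276.7 to 4714.4 CPM in ImuBcl6 and 5486.3 to 6135.0 in WT, and light zone markers to 567.4 to 648.4 in ImuBcl6 and 729.0 to 768.4 in WT. Dark zone markers summed to 1247.0 to 1378.0 CPM in ImuBcl6 and 1391.2 to 1461.0 in WT. Germinal center markers summed to 2285.6 to 2495.9 CPM in ImuBcl6 and 2534.1 to 2687.4 in WT. For plasma cell markers the sums were 1997.2 to 2195.4 CPM in ImuBcl6 and 2364.3 to 2632.7 in WT. Markers of stroma and endothelium summed to 45.6 to 60.5 CPM in ImuBcl6 and 71.2 to 72.1 in WT. The T cell list, of which only Cd2 and Lck reached 1 CPM in every library, summed to 342.9 to 450.5 CPM in ImuBcl6 and 262.8 to 284.2 in WT. Myeloid markers summed to 656.3 to 740.7 CPM in ImuBcl6 and 514.8 to 586.5 in WT. The part of these lists in the results was not tested.

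Among the higher members Tnfaip3 had the smallest p-value, with 62.6, 51.7, 56.2, 61.1 and 58.5 CPM in ImuBcl6 and 33.9, 36.3 and 33.0 in WT (0.73 ± 0.08, adjusted p = 1.6e-05). Every ImuBcl6 library was above every WT library. Nfkbiz had 14.1, 11.6, 10.5, 12.9 and 10.4 CPM in ImuBcl6 and 9.29, 6.71 and 5.14 in WT (0.71 ± 0.16, adjusted p = 0.00332). Birc3 had 131.3, 134.2, 125.6, 134.2 and 127.7 CPM in ImuBcl6 and 104.0, 102.7 and 96.4 in WT (0.37 ± 0.06, adjusted p = 0.000297). None of these groups overlapped. Batf averaged 30.6 ± 4.88 CPM in ImuBcl6 and 22.4 ± 0.108 in WT (0.42 ± 0.12, adjusted p = 0.0122). Traf1 had 138.8, 146.8, 144.3, 150.2 and 149.2 CPM in ImuBcl6 and 124.1, 134.9 and 118.9 in WT (0.21 ± 0.06, adjusted p = 0.0124), and this call was lost without WT replicate 1 (adjusted p = 0.0529) or WT replicate 3 (0.0738).

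Among the lower members were the canonical subunits Rel and Nfkb1. Rel, the subunit most tied to lymphocyte proliferation, had 50.3, 44.7, 50.0, 37.5 and 31.6 CPM in ImuBcl6 and 66.4, 62.2 and 70.0 in WT (-0.64 ± 0.14, adjusted p = 0.00279). Nfkb1, given above, differed by -0.36 ± 0.06 (adjusted p = 0.000352). Both pairs of groups were separate. Map3k14, the kinase of the alternative pathway, had 38.3, 47.2, 46.4, 50.8 and 49.3 CPM in ImuBcl6 and 56.8, 56.4 and 56.9 in WT (-0.29 ± 0.09, adjusted p = 0.016). The adaptors Traf5 (-0.46 ± 0.08, adjusted p = 0.000849) and Birc2 were lower too. Birc2 had 67.4, 56.5, 59.8, 52.6 and 45.4 CPM in ImuBcl6 and 68.8, 69.2 and 70.5 in WT (-0.31 ± 0.11, adjusted p = 0.0283). Traf5 and Birc2 levels did not overlap between these groups. Cyld had 196.2, 192.4 and 207.7 CPM in WT, above every ImuBcl6 library (-0.41 ± 0.10, adjusted p = 0.00425). Ltb was lower (-0.36 ± 0.12, adjusted p = 0.0309), a call that was lost in 5 of 8 single omissions, those of each WT library and of ImuBcl6 replicates 2 and 3 (adjusted p 0.0529 to 0.0941). The calls of Birc2 and Map3k14 were lost in 4 and 2 of 8 single omissions.

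WT and Cre control have the same genotype label but different protocol texts, a stranded TruSeq kit being named for KO and Cre control. Groups did not overlap for 25 of 34 members (73.5%), beside 70.8% of 11312 genes. Birc2 averaged 24.6 ± 2.84 CPM in Cre control and 69.5 ± 0.845 in WT, Chuk 34.4 ± 2.80 in Cre control and 87.3 ± 3.84 in WT, and Cyld 98.7 ± 5.33 in Cre control and 198.8 ± 7.95 in WT (SD, n = 5 and 3). Rela was on the other side, at 130.8 ± 8.64 CPM in Cre control and 91.3 ± 5.48 in WT. Differences between alleles were therefore tested against the control of the same protocol text, and the KO effect minus the D370Y effect sets such differences against each other.

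The rest of the pathway was followed in lists that hold no member. Of all tested genes 3.55% were called in D370Y against WT and 8.18% in ImuBcl6 D370Y against ImuBcl6. The share was 1.39% in KO and 12.5% in the mean of both D370Y effects. Of the receptors and their adaptors, Tnfrsf13b, which encodes the BAFF and APRIL receptor TACI, was the 1 gene of 10 that passed the test in ImuBcl6 D370Y against ImuBcl6 (0.53 ± 0.11, adjusted p = 0.00983), and 0 of 11 and 0 of 10 passed in D370Y against WT and in KO. In the mean of both D370Y effects, Tnfrsf4, which encodes the costimulatory receptor OX40, was higher as well (0.38 ± 0.08, adjusted p = 0.00243), with Tnfrsf13b at 0.39 ± 0.08 (adjusted p = 0.00297), 2 of 11. Of 19 further kinase and ubiquitin parts none passed in the 3 comparisons of a Tbl1xr1 allele with its own control, and in the mean of both effects the kinase gene Ikbke was higher (0.42 ± 0.12, adjusted p = 0.0237) and the ubiquitin-conjugating enzyme gene Ube2n lower (-0.17 ± 0.05, adjusted p = 0.0409).

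Established NF-kB targets outside the member list are given beside the shares of all tested genes. Those were 2.6% higher and 0.943% lower in D370Y against WT, and 2.8% and 5.38% in ImuBcl6 D370Y against ImuBcl6. They were 0.476% and 0.913% in KO, and 6.23% and 6.28% in the mean of both D370Y effects. In D370Y against WT 2 of 19 were higher, Ccr7, the chemokine receptor of B cells leaving the follicle (0.95 ± 0.14, adjusted p = 0.00206), and Irf4, a regulator of plasma cell fate that is also among the plasma cell markers (0.52 ± 0.09, adjusted p = 0.00779), and 1 was lower, the stress gene Gadd45b (-0.46 ± 0.11, adjusted p = 0.036). In ImuBcl6 D370Y against ImuBcl6 2 of 18 were higher, Ccr7 (0.57 ± 0.14, adjusted p = 0.0286) and Vcam1, an adhesion molecule that is also among the myeloid markers (0.67 ± 0.14, adjusted p = 0.0103). In KO 0 of 18 passed. In the mean of both D370Y effects 3 of 19 were higher, Ccr7 (0.76), Vcam1 (0.73) and the costimulatory ligand gene Cd80 (0.36), and Gadd45b was lower (-0.34). The medians of these targets were 0.08 in D370Y against WT, 0.05 in ImuBcl6 D370Y against ImuBcl6 and -0.08 in KO. In ImuBcl6 against WT 5 of 10 receptors were higher and 3 lower, and 3 of 19 further parts were higher and 8 lower. Of the targets 7 of 19 were higher and 7 lower, with a median of -0.09 over the targets tested. Among the higher ones were Il10 (1.70 ± 0.15, adjusted p = 6e-06) and Bcl2a1d, a survival gene with near-identical copies (1.31 ± 0.10, adjusted p = 1e-06). Of all genes tested in ImuBcl6 against WT, 24.7% were higher and 28.6% lower.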

How the data were processed

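RNA was measured by bulk RNA-seq. Per the submitters' processing notes reads were aligned with STAR to mm10. How reads were counted, with which strand setting and gene models, is not stated in those sources. The authors deposited CPM values per gene and library. Each value was a whole multiple of 1 read within 0.01 read for 100% of values, so reads were recovered for edgeR 4.0.16 and DESeq2 1.42.0 as alternatives. In the main test log2(CPM + 1) was fitted in limma 3.58.1 (R 4.3.3), with trend and robust moderation, on genes at 1 CPM or more in as many libraries as the smallest group. Tests were two-sided, with a call at a Benjamini-Hochberg adjusted p below 0.05 over all tested genes. Fold changes understate the change of low genes. The 95% intervals are those of limma, and the limit of 3 reads covers counting error only. Alternatives were a pseudocount of 0.5, no low-value filter, CPM over listed genes, TMM scaling, both count tools, the replicate number as a block, a sex term in KO, 1 fit of all libraries and the omission of each library. Coordinates are from GENCODE M21 (GRCm38, mm10). Scripts were tested on simulated data. No libraries agreed within sampling noise (lowest chi-square per degree of freedom 3.65). Named genes are all called members, the top 3 by test statistic where fewer than 3 were called, and the highest member of each role class. Some genes and lists are not reported here. The members and lists were chosen with earlier results of these data known.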

Additional observations from a re-analysis of the deposited data

Results flagged for a closer look

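The values of each member within a group were examined in every group except WT, whose 3 libraries are too few for the rule. In 17 of 170 such sets, the highest or lowest library stood apart from the others by the gap that chance gives in about 1 in 20 groups. Of these, 8 belong to KO replicate 3, in which reads on listed genes made up 64.4% of the CPM denominator. The part of that share in the values was not tested. KO replicate 3 was low for Relb (31.1 CPM, others 46.1 to 51.6), Ikbkb (78.1, others 96.3 to 103.0), Traf2 (63.2, others 95.2 to 97.5) and Traf5 (51.0, others 67.5 to 70.9). It was also low for Tnip1 (70.3, others 105.9 to 111.7) and Il4i1 (0.452, others 0.959 to 1.102). It was high for Nfkbiz (14.7, others 6.41 to 7.66) and Birc2 (31.4, others 19.7 to 22.8).

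The other 9 were spread over more libraries. In ImuBcl6 D370Y, replicate 4 was high for Nfkb1 (219.9 CPM, others 197.8 to 202.6), replicate 2 for Birc3 (155.3, others 130.8 to 137.2) and replicate 3 for Tnf (24.7, others 14.3 to 16.3). In the same group replicate 1 was low for Bcl3 (31.4, others 45.2 to 47.2) and replicate 5 for Traf6 (50.7, others 57.2 to 59.7). In D370Y, replicate 4 was high for Tnfaip3 (46.6, others 35.3 to 37.7) and Il4i1 (1.28, others 0.503 to 0.687), and replicate 3 was low for Tnip1 (72.1, others 78.8 to 80.2). In Cre control, replicate 5 was high for Traf1 (160.6, others 139.7 to 144.5).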

How the results depend on the processing

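Of 576 alternatives for single members, 514 kept direction and side of the threshold, 43 lost a call, 19 gained one and 0 changed direction. For most counts that moved by more than 1.5 times, and for calls lost or gained, the cause was not tested. D370Y against WT gave 376 genes and 1 member, with no low-value filter 219 genes, in 1 fit of all 28 libraries 249 genes, and under DESeq2 659 genes and 2 members (Traf1, Traf5). Single omissions gave 124 to 473 genes and 0 to 2 members. ImuBcl6 D370Y against ImuBcl6 gave 882 genes and 2 members, under DESeq2 1378 genes, in 1 fit of all libraries 1 member (Tnf), and in single omissions 434 to 1016 genes and 0 to 5 members. KO against Cre control gave 146 genes and 0 members, with no filter 86 genes, with CPM over listed genes 239 genes and 1 member (Traf1), and under edgeR 238 genes. It gave 455 genes and 3 members under DESeq2, 279 genes and 1 member (Traf1) in 1 fit of all libraries, and 1 member (Batf) with the sex pattern as a term. Single omissions gave 87 to 449 genes and 0 to 1 members.

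The mean of both D370Y effects gave 2 members, 1 (Traf5) under TMM scaling, 4 under DESeq2 (Birc3, Nfkbiz, Tnf, Traf5), and in single omissions 896 to 1482 genes and 1 to 3 members. The difference of both effects gave 74 genes and 0 members, with no filter 49 genes, under DESeq2 184 genes and 2 members, and in single omissions 31 to 110 genes and 0 to 1 members. The KO effect minus the D370Y effect gave 16 genes, 9 under TMM scaling, 5 under edgeR, 43 under DESeq2 and 7 to 63 in single omissions. ImuBcl6 against WT gave 8 to 20 members in single omissions.

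The share of called genes that were higher depended on the scaling. In KO it was 34.2%, against 48.5% with CPM over listed genes, 48.1% with TMM, 49.2% with edgeR and 50.5% with DESeq2. In ImuBcl6 D370Y it was 34.2%, against 44.7% with CPM over listed genes and 45.3% with DESeq2. In the mean of both effects it was 49.8%, against 64.6% with CPM over listed genes. In the difference of effects it was 13.5%, against 29.3% with DESeq2. In the KO effect minus the D370Y effect it was 18.8%, against 30.8% with no filter and 32.6% with DESeq2, where the median of all genes was 0.06 in place of -0.05.

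Replicate numbers did not pair the libraries: correlations of same-numbered deviations ran from -0.26 to 0.50. With the replicate number as a block, the mean of both D370Y effects gave Traf1 and Traf5 in place of Birc3 and Traf5, and ImuBcl6 against WT 11 members, without Birc2 and Traf1 and with Nfkbia. In the same fits D370Y against WT gave 764 genes and 2 members (Ltb, Traf5), ImuBcl6 D370Y against ImuBcl6 4 members (Ltb, Nfkb2, Tnf, Tnfaip3) and the difference of effects 1 member (Ltb). CPM resolution at 3 reads, 0.0640 to 0.133 CPM, limits Il4i1 alone among the members.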

Other observations

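D370Y replicates 4 and 5 stood together in several members. Rel was at 74.95 and 74.1 CPM in them and at 54.7 to 57.4 CPM in D370Y replicates 1, 2 and 3. The summed plasma cell markers were 1906 and 2035 CPM in replicates 4 and 5, and 2722 to 3737 in the other 3. The summed light zone markers were 839 and 880 CPM in replicates 4 and 5, and 714 to 809 in the other 3. Dark zone markers summed to 1080 and 1074 CPM in replicates 4 and 5, and to 1241 to 1346 in the other 3. Germinal center markers summed to 2178 and 2186 CPM in replicates 4 and 5, and to 2295 to 2391 in the other 3. These values are given as a description, and their relation to Tnf and Lta was not tested.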
